A study of Mus musculus with 6 samples.

Results

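Potassium channels set the resting potential of cells, end action potentials and carry potassium between compartments. In the cochlea, potassium enters hair cells through their transduction channels, leaves through channels of their basal membrane and is returned to the endolymph by the stria vascularis, while the spiral ganglion neurons use voltage-gated potassium channels to fire at high rates. A channel is built from pore-forming alpha subunits, which fall into voltage-gated (Kv), calcium- or sodium-activated, inward rectifier (Kir) and tandem-pore leak (K2P) families, and from auxiliary subunits that change its gating or its delivery to the membrane. The genes of these subunits, whose symbols begin with *Kcn*, were followed in cochlear tissue of 3 wild type (WT) and 3 *Cmah*-null mice, all 12 months old and C57BL/6 by the sample records (C57BL/6J in the study's methods). *Cmah*-null mice lack the enzyme that turns the sialic acid Neu5Ac into Neu5Gc in every tissue, and mice without it lose hearing with age. Each sample of total RNA was hybridized to 1 Illumina MouseRef-8 v2.0 array, with 3 mice per group by the study's methods. Sex was not given in the sources used here, and the sample records tie no array to a mouse, so the p-values below measure the spread between these samples.

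The members were all symbols on the array that begin with *Kcn*, one or more letters and a number, leaving out *Kcnq1*, *Kcne1*, *Kcnj10* and *Kcnj13*. They were 81 of the 18138 gene symbols on the array and had 118 of its 25697 probes. A member with more than 1 probe (26 of the 81) was represented by the probe with the highest mean signal. Levels are given as log2 of the quantile-normalized bead signal, and a difference is the *Cmah*-null mean minus the WT mean on that scale. A probe was counted as detected on an array where its detection p, which sets its signal against the negative control beads, was under 0.05. Between 13873 and 15223 probes were detected per array. Levels of different genes were not set against each other, since probes differ in how strongly they bind.

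The arrays were not alike within a group. *Cmah*-null 3 lay far from *Cmah*-null 1 and 2, with an SD of the log2 difference over the 12410 probes detected on all 6 arrays of 0.781 and 0.774, whereas *Cmah*-null 1 and 2 differed by an SD of 0.138. All other pairs had an SD of at least 0.391. The squared difference of *Cmah*-null 1 and 2 was 1.18 times the error among beads at the median probe, against 5.45 to 47.6 times for the other pairs, where bead noise alone would keep that median under 1. They were kept as 2 samples because the sample records list them so, and values with the 2 averaged stand among the alternatives. WT 1, *Cmah*-null 1 and *Cmah*-null 2 had a median of 32 to 34 beads per probe and the other 3 arrays 38 or 39. The set with fewer beads held 1 WT and 2 *Cmah*-null samples, and the other held 2 WT samples and, of the *Cmah*-null group, only *Cmah*-null 3. Of the 37 members detected on all 6 arrays, 17 (45.9%) had differences of opposite sign in the 2 sets, against 47.5% of all symbols so detected, and the values within each set stand beside the larger differences. The probe of *Cmah* was detected on 1 WT array and on 2 of the *Cmah*-null group. It stood at 7.27, 7.28 and 7.87 in WT and at 7.95, 7.98 and 7.27 in *Cmah*-null samples. Its signal was thus low, did not separate the genotypes and checks no label. Of the 7 hair cell markers on the array, *Myo7a* and *Otof* were detected on all 6 arrays (differences of 0.09 and 0.55, neither past 1.5-fold), *Myo15* on 2, and *Pou4f3*, *Slc26a5*, *Strc* and *Atoh1* on none.

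Of the 81 members, 37 were detected on all 6 arrays, 19 on some arrays and 25 on none. The shares, 45.7% on all arrays and 30.9% on none, stood beside 54.6% and 30.1% over all gene symbols. Signals of the 25 undetected members ranged from 6.82 to 7.5 and their differences from -0.18 to 0.17. Per array, 51, 43 and 42 members were detected in WT samples, and 44, 43 and 44 in *Cmah*-null samples, so the ranges overlapped (exact permutation test, two-sided p = 1.0). With 3 samples against 3 that test cannot go below 0.1 and could not have passed 0.05. Over all gene symbols, 11260 to 11520 were detected in WT samples and 10959 to 11184 in *Cmah*-null samples, which did not overlap (exact permutation test, two-sided p = 0.1).

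**Figure D1:**
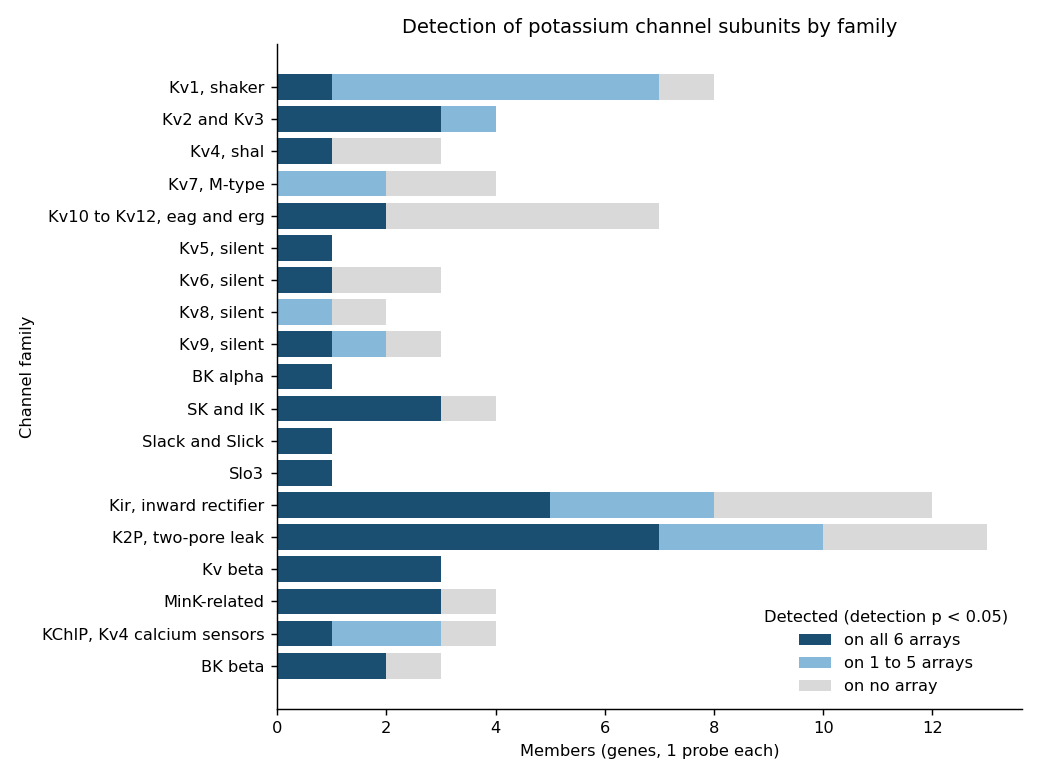
Number of member genes (horizontal axis) in each channel family (vertical axis), coloured by whether the gene's probe was detected on all 6 arrays, on 1 to 5 arrays or on none, at a detection p under 0.05. The calcium- and sodium-activated channels and the Kv beta subunits were mostly detected on all arrays, whereas of the 8 Kv1 members 1 was, and of the 4 Kv7 members none was.

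Detection differed by role. Among the 26 conducting voltage-gated alpha subunits, 7 were detected on all arrays, among them *Kcna1* of the Kv1 family, *Kcnc1* and *Kcnc4* of Kv3, *Kcnd2* of Kv4, and *Kcnh1* and *Kcnh2* of the eag and erg channels. A further 9 were detected on some arrays and 10 on none. Of the 9 electrically silent subunits, which work only together with Kv2 subunits, *Kcnf1*, *Kcng4* and *Kcns1* were detected throughout. Of the 7 alpha subunits grouped as calcium- or sodium-activated, 6 were detected on all arrays, the exception being *Kcnn3*. The group was set by gene family and took in *Kcnu1*, the gene of Slo3, without regard to its gating. The inward rectifiers had 5 of 12 detected on all arrays (*Kcnj3*, *Kcnj8*, *Kcnj12*, *Kcnj15* and *Kcnj16*), and the leak channels 7 of 13 (*Kcnk1*, *Kcnk2*, *Kcnk3*, *Kcnk5*, *Kcnk6*, *Kcnk12* and *Kcnk13*). Of the 14 auxiliary subunits, 9 were detected on all arrays, including every Kv beta subunit (*Kcnab1*, *Kcnab2* and *Kcnab3*).

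Members in the same chromosome band, of one family or of several, were detected alike in some bands and not in others. The file gave a cytoband for 77 members, and 13 bands held more than 1 of them, 33 members in all. Of the Kv1 genes *Kcna1*, *Kcna5* and *Kcna6* in band 6qF3, *Kcna1* was detected on 6 arrays, *Kcna5* on 2 and *Kcna6* on 1. Band 3qF2.3 held *Kcna2*, *Kcna3* and *Kcna10*, detected on 3, 3 and 4 arrays, and *Kcnc4*, detected on 6. Band 16qC4 held *Kcne2* and *Kcnj15*, detected on 6 arrays each, and *Kcnj6*, detected on 4. In contrast, *Kcnj1* and *Kcnj5* in band 9qA4, and *Kcnk4* and *Kcnk7* in band 19qA, were all detected on no array.

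No member had an adjusted p under 0.05 in the comparison of *Cmah*-null with WT mice (limma, Benjamini-Hochberg over all probes), and no probe of the array did. The lowest adjusted p of a member was 0.397. At an unadjusted p under 0.05 there were 4 of 81 members (*Kcnt1*, *Kcnj12*, *Kcne2* and *Kcnh1*), where 9.07% of all gene symbols passed. The study's threshold of 1.5-fold and a p under 0.05, applied here to the unadjusted limma p because the methods do not say whether theirs was adjusted, was passed by 1 member with a higher and 1 with a lower level in *Cmah*-null mice, *Kcne2* and *Kcnj12*. Over all symbols, 1.61% passed higher and 1.46% lower, so 2 of 81 members was close to the background. The median difference was 0.04 over the 81 members and 0.01 over all symbols. Among symbols detected on all arrays 2.73% passed higher and 2.54% lower, against 1 and 1 of the 37 members so detected. Over these 37 members the median was 0.14, with 27 positive and 10 negative differences, where all symbols so detected had a median of 0.04 and 55.1% positive.

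**Figure D2:**
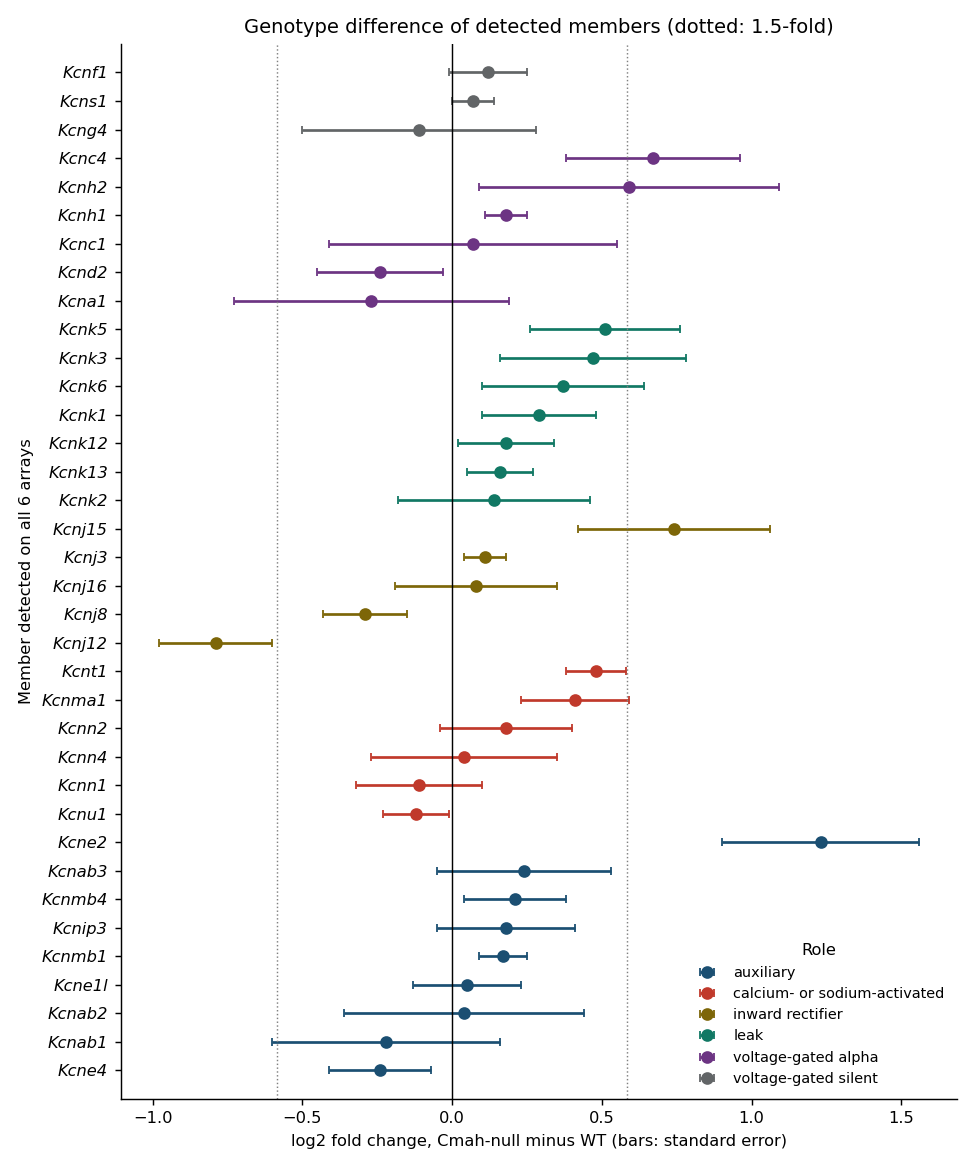
Log2 fold change, *Cmah*-null minus WT (horizontal axis), of 36 of the 37 members detected on all 6 arrays (vertical axis), coloured by role. Points are the limma estimates, bars their standard errors and dotted lines 1.5-fold. *Kcne2* stood at 1.23 and *Kcnj12* at -0.79, and the 7 leak channels all lay to the right of 0, where 27 of the 37 members had a positive difference.

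The groups did not overlap for 8 members with higher and 2 with lower values in *Cmah*-null mice, where 10% of all symbols were apart upward and 6.67% downward. Of these, *Kcnd3* (higher) and *Kcna4* (lower) were detected on no array. The other 8, set beside 12.1% upward and 7.43% downward of the symbols detected on all arrays, were *Kcne2*, *Kcnj15*, *Kcnc4*, *Kcnt1*, *Kcnh1*, *Kcnmb1* and *Kcnj3*, all higher, and *Kcnj12*, lower.

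**Figure D3:**
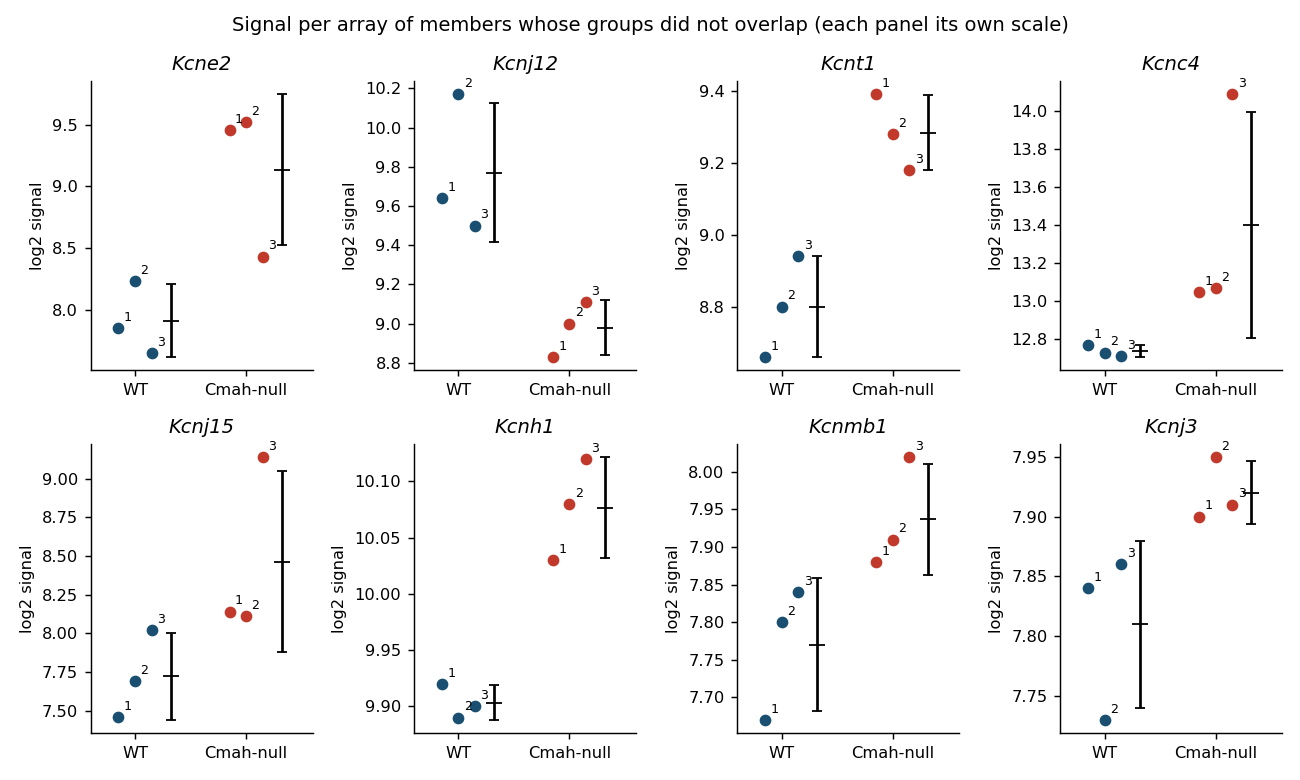
Log2 quantile-normalized signal (vertical axis, each panel on its own scale) of the 8 members detected on all arrays whose groups did not overlap, in WT (blue) and *Cmah*-null (red) samples numbered by replicate, with mean and SD (n = 3) as black bars. For *Kcnc4* and *Kcnj15* *Cmah*-null 3 stood far above the rest, whereas for *Kcne2* that sample was the nearest to WT.

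Among the auxiliary subunits, *Kcne2* had the largest difference of all members. It codes for MiRP1, a single-span subunit that joins several Kv alpha subunits and, in epithelia such as stomach and choroid plexus, KCNQ1. Its log2 signals were 7.85, 8.23 and 7.65 in WT and 9.46, 9.52 and 8.43 in *Cmah*-null samples. Every *Cmah*-null value lay above every WT value, but *Cmah*-null 3 was nearer to the WT samples than to its own group. The means were 7.91 ± 0.29 (SD, n = 3) and 9.14 ± 0.61 (SD, n = 3), a difference of 1.23 with a standard error of 0.33, or 2.34-fold (limma, unadjusted p = 0.0106, adjusted p = 0.463). Within the arrays with fewer beads the difference was 1.64 and within those with more beads 0.49. *Kcne2* passed the 1.5-fold threshold under each of the 13 alternatives. Its single probe (ILMN_2794237, band 16qC4) is shown by its first 30 of 50 bases, since the call rests on this one sequence.
Kcne2: ctcaggggactgaggtgggacaggctagct

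Markers of the choroid plexus, where *Kcne2* is known to be abundant, were set beside it. Of the 6 listed, 5 were on the array and all 5 were higher in *Cmah*-null samples, 4 of them past the 1.5-fold threshold (*Folr1*, *Clic6*, *Kl* and *Otx2*), and none was at background throughout. The log2 of their summed signal ran from 12.37 to 15.46 in WT and from 15.38 to 15.79 in *Cmah*-null samples. These ranges overlapped through WT 2, the highest WT sample both for the sum and for *Kcne2*, with WT 3 the lowest for both. The *Kcne2* value of WT 2 lay under all *Cmah*-null values. *Cmah*-null 3 was the lowest of its group for the sum as for *Kcne2*. *Folr1*, the folate receptor of that epithelium, stood at 7.55, 7.67 and 7.24 in WT and at 8.56, 8.51 and 7.60 in *Cmah*-null samples. *Otx2*, a transcription factor of that epithelium, stood at 9.32, 9.32 and 9.20 in WT and at 10.18, 10.20 and 9.73 in *Cmah*-null samples. In *Folr1* and *Otx2*, as in *Kcne2*, *Cmah*-null 3 was the lowest of its group. *Kl*, the klotho gene, had the largest difference of the called markers (1.84) and its highest value in *Cmah*-null 3, with 8.31, 8.86 and 7.76 in WT and 9.95, 10.15 and 10.36 in *Cmah*-null samples. *Clic6* stood at 10.85, 11.30 and 11.56 in WT and at 12.43, 12.19 and 12.41 in *Cmah*-null samples, so the markers did not share one order of samples. *Ttr*, the transthyretin gene that leads the list, spread over 10.36 to 15.33 within WT alone and stood at 15.56, 15.37 and 15.09 in *Cmah*-null samples. It made up most of the summed signal in every sample but WT 3, so the overlap of the sums was largely that of *Ttr*. The part of these transcripts in the *Kcne2* difference was not tested, and more cells of a type and more RNA per cell cannot be told apart in a whole tissue.

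The other MinK-related subunits did not follow *Kcne2*. *Kcne4*, which damps Kv1 currents, had a difference of -0.24 (standard error 0.17), and *Kcne1l* one of 0.05. *Kcne3* was detected on no array. The left-out relative *Kcne1*, the partner of KCNQ1 in the stria, was detected on 5 arrays with a difference of -0.30, while *Kcnq1* was detected on 2 arrays with a difference of 0.03.

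The Kv beta subunits, which attach to the inner face of Kv1 channels and bind a redox cofactor, had *Cmah*-null 3 apart from its group. *Kcnab1* stood at 10.80, 10.70 and 10.75 in WT and at 10.99, 10.99 and 9.62 in *Cmah*-null samples. *Kcnab2* stood at 13.31, 12.74 and 12.57 in WT and at 12.48, 12.50 and 13.75 in *Cmah*-null samples. By the brightest probe of each gene *Cmah*-null 1 and 2 lay outside the WT range on one side and *Cmah*-null 3 on the other. The other 2 probes of *Kcnab1* detected on all arrays had *Cmah*-null 1 and 2 inside the WT range, at 10.22 and 10.41 against 9.83 to 10.60 and at 7.60 and 7.73 against 7.52 to 7.97, and *Cmah*-null 3 was under that range in the first of them (9.15) and inside it in the other (7.70). The differences were -0.22 (standard error 0.38) and 0.04 (standard error 0.40), and that of *Kcnab2* was -0.39 without *Cmah*-null 3. *Kcnab3* had a difference of 0.24 (standard error 0.29), with *Cmah*-null 3 again the highest sample.

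The remaining auxiliary subunits bind calcium or serve BK channels. *Kcnmb1*, the BK beta subunit of smooth muscle, stood at 7.67, 7.80 and 7.84 in WT and at 7.88, 7.91 and 8.02 in *Cmah*-null samples. The groups were apart by a narrow margin, and the difference was 0.17 (standard error 0.08, limma unadjusted p = 0.1, adjusted p = 0.645). *Kcnmb4*, the neuronal BK beta subunit, differed by 0.21 (standard error 0.17). Of the KChIPs, the calcium sensors of Kv4 channels, *Kcnip3* was detected on all arrays with a difference of 0.18 (standard error 0.23) and *Kcnip1* on 4 with a difference of 0.05.

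Among the inward rectifiers, *Kcnj12* was the single member called lower. It codes for Kir2.2, one of the strong rectifiers that hold the resting potential of muscle, heart and some neurons. Its log2 signals were 9.64, 10.17 and 9.50 in WT and 8.83, 9.0 and 9.11 in *Cmah*-null samples, with all 3 *Cmah*-null values under the lowest WT value. The means were 9.77 ± 0.35 (SD, n = 3) and 8.98 ± 0.14 (SD, n = 3), a difference of -0.79 with a standard error of 0.19, or 1.73-fold lower (limma, unadjusted p = 0.00667, adjusted p = 0.430). The difference was -0.72 within the arrays with fewer beads and -0.73 within those with more. It lost its call under 1 alternative, scaling each array to the same median, where it was -0.49 (limma, unadjusted p = 0.0616). *Kcnj2*, which codes for the close relative Kir2.1, was detected on 2 WT arrays and on no *Cmah*-null array, with a difference of -0.10. The first 30 bases of the *Kcnj12* probe (ILMN_2695900, band 11qB2) are given for the same reason as above.
Kcnj12: ggtcccagccccggtgggaggaggctgtgt

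Skeletal muscle transcripts, whose cells express Kir2 channels, were abundant on these arrays. All 6 listed markers were detected on every array, 5 had a negative difference and that of *Myh2* rounded to 0, and none passed the 1.5-fold threshold. The log2 of their summed signal was 17.44, 17.56 and 16.58 in WT and 16.66, 16.66 and 16.97 in *Cmah*-null samples. The ranges of the genotypes overlapped. Within the groups, WT 3 was the lowest and WT 2 the highest WT sample for the muscle sum and for *Kcnj12*, and *Cmah*-null 3 the highest *Cmah*-null sample. Between the groups, WT 3 had the lowest muscle sum of all samples, while its *Kcnj12* value (9.50) was above every *Cmah*-null value (8.83 to 9.11). The 4 brown fat markers on the array had lower means in *Cmah*-null samples, 3 of them past the threshold, while *Dio2* was detected on no array, with a summed log2 signal from 15.04 to 15.74 in WT and from 12.69 to 14.30 in *Cmah*-null samples. The part of either tissue in the *Kcnj12* difference was not tested.

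*Kcnj15*, the gene of Kir4.2, was the other inward rectifier with a large difference, and its probes did not behave alike. The brightest probe stood at 7.46, 7.69 and 8.02 in WT and at 8.14, 8.11 and 9.14 in *Cmah*-null samples. The groups were apart, yet *Cmah*-null 1 and 2 exceeded WT 3 by little and *Cmah*-null 3 stood alone. The difference was 0.74 (standard error 0.32, limma unadjusted p = 0.0607, adjusted p = 0.601), and 0.40 without *Cmah*-null 3. It was 0.66 within the arrays with fewer beads and 1.29 within those with more. The other 2 probes share 49 of their 50 bases with each other and were detected on no array, with differences of -0.02 and -0.08. The first 30 bases of the 3 probes are set out to show that these 2 are one sequence shifted by a base (capitals, the shared stretch), so that they are not separate evidence, and that the detected probe is a different one.
Kcnj15 detected probe: ctgtgaccgcagacaaaggagagacgcacc
Kcnj15 undetected probe 1: CGCCTGCATTTCCTTGGGAAAGAGAATTAa
Kcnj15 undetected probe 2: aCGCCTGCATTTCCTTGGGAAAGAGAATTA

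The other detected inward rectifiers moved less. *Kcnj16*, which forms channels with Kir4.1 in epithelia and glia, stood at 8.07, 8.47 and 8.87 in WT and at 8.92, 8.57 and 8.15 in *Cmah*-null samples. These groups covered nearly the same range, and the difference was 0.08 (standard error 0.27). *Kcnj3*, a G protein-gated channel, had a difference of 0.11 (standard error 0.07), with WT values of 7.73 to 7.86 and *Cmah*-null values of 7.90 to 7.95. *Kcnj8*, the pore of the vascular ATP-sensitive channel, had a difference of -0.29 (standard error 0.14, limma adjusted p = 0.642), and *Abcc9*, which codes for its sulfonylurea receptor partner, one of -0.14 (standard error 0.26).

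Among the calcium- and sodium-activated channels, *Kcnt1* had the smallest p of all members. It codes for Slack, a sodium-activated channel of neurons. Its log2 signals were 8.66, 8.80 and 8.94 in WT and 9.39, 9.28 and 9.18 in *Cmah*-null samples. Every *Cmah*-null value was above every WT value and *Cmah*-null 3 was the lowest of its group. The difference was 0.48 with a standard error of 0.10, or 1.40-fold (limma, unadjusted p = 0.00394, adjusted p = 0.397), and it ran from 0.41 to 0.76 under the alternatives. It was 0.67 within the arrays with fewer beads and 0.31 within those with more. It stayed under 1.5-fold except with neqc normalization (0.65) and median scaling (0.76). The first 30 bases of its probe (band 2qA3) are given because no second probe of the gene stands beside it.
Kcnt1: aagtccatgggaagagctgccacttctgag

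*Kcnma1*, the BK channel alpha subunit that shapes the receptor potential of inner hair cells, stood at 9.43, 9.0 and 9.03 in WT and at 9.70, 9.72 and 9.27 in *Cmah*-null samples. The ranges overlapped through WT 1 and *Cmah*-null 3. The difference was 0.41 (standard error 0.18, limma unadjusted p = 0.0650, adjusted p = 0.609), 0.28 within the arrays with fewer beads and 0.25 within those with more. *Kcnn2*, the SK2 channel that works with the efferent synapse of hair cells, stood at 7.56, 7.75 and 7.65 in WT and at 7.61, 7.56 and 8.34 in *Cmah*-null samples, a difference of 0.18 (standard error 0.22) that became -0.07 without *Cmah*-null 3. *Kcnn1*, *Kcnn4* and *Kcnu1* had differences of -0.11, 0.04 and -0.12.

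The 7 detected leak channels were all positive in the difference, with a median of 0.29. Most detected members were positive too, 27 of 37, with a median of 0.14. None passed the threshold. *Kcnk5*, the acid-sensitive channel TASK-2 of epithelia, stood at 9.02, 9.50 and 9.92 in WT and at 9.84, 9.85 and 10.26 in *Cmah*-null samples, a difference of 0.51 (standard error 0.25, limma unadjusted p = 0.0932, adjusted p = 0.642). *Kcnk3*, the gene of TASK-1, stood at 10.09, 9.13 and 9.03 in WT and at 9.72, 9.77 and 10.19 in *Cmah*-null samples, a difference of 0.47 (standard error 0.31). In both genes 1 WT sample reached into the *Cmah*-null range. Within the arrays with fewer and with more beads the differences were 0.83 and 0.55 for *Kcnk5*, whereas those of *Kcnk3*, at -0.35 and 1.11, had opposite signs. *Kcnk6*, the gene of TWIK-2, stood at 9.90, 10.21 and 10.56 in WT and at 10.39, 10.29 and 11.11 in *Cmah*-null samples, a difference of 0.37 (standard error 0.27). *Kcnk1*, the gene of TWIK-1, stood at 11.97, 11.67 and 11.74 in WT and at 12.26, 12.31 and 11.68 in *Cmah*-null samples, a difference of 0.29 (standard error 0.19), with *Cmah*-null 3 inside the WT range. Within the arrays with fewer beads it was 0.31 and within those with more -0.03. *Kcnk2*, the mechanosensitive TREK-1, had a difference of 0.14 that became -0.22 without *Cmah*-null 3. *Kcnk12* and *Kcnk13* had differences of 0.18 and 0.16. Without *Cmah*-null 3, 6 of the 7 leak channels were positive and their median was 0.12.

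The Kv3 channels open and close fast and let neurons fire at high rates. *Kcnc4*, the gene of Kv3.4, stood at 12.77, 12.73 and 12.71 in WT and at 13.05, 13.07 and 14.09 in *Cmah*-null samples. The WT samples lay close together and all *Cmah*-null samples above them, 1 of them far above. The difference was 0.67 (standard error 0.29, limma unadjusted p = 0.0644, adjusted p = 0.607), and 0.32 without *Cmah*-null 3. Within the arrays with fewer beads it was 0.29 and within those with more 1.37. A second probe of *Kcnc4*, detected on 4 arrays, had a difference of 0.02. The 2 probes are shown because they do not move alike, and their first 30 bases are unrelated, the first lying farther along the transcript.
Kcnc4 brightest probe: gtgccctgtctgcatgccctcaactgtcat
Kcnc4 second probe: caagacgccctctcgtccaactatgcccac

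*Kcnc1*, the gene of Kv3.1, stood at 11.24, 11.34 and 11.14 in WT and at 10.67, 10.81 and 12.45 in *Cmah*-null samples. *Cmah*-null 1 and 2 were under all WT samples and *Cmah*-null 3 above them, and the difference of 0.07 (standard error 0.48) became -0.50 without *Cmah*-null 3. Its second probe detected on all arrays had a difference of 0.08 but not the same order of samples, with 8.13, 7.59 and 7.81 in WT and 7.70, 7.87 and 8.19 in *Cmah*-null samples, so that *Cmah*-null 1 and 2 lay inside the WT range.

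*Kcnh2* codes for the erg channel HERG. It stood at 9.03, 8.55 and 8.52 in WT and at 8.67, 8.76 and 10.43 in *Cmah*-null samples. *Cmah*-null 3 carried nearly the whole difference, which was 0.59 (standard error 0.50) over the 6 samples and 0.01 without that one. It was -0.32 within the arrays with fewer beads and 1.90 within those with more. Its second detected probe repeated the pattern at 8.70, 8.46 and 8.27 in WT and at 8.23, 8.48 and 10.09 in *Cmah*-null samples. A further probe of the gene was detected on no array.

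*Kcnh1*, the eag channel, was the most even of the members apart between groups. It stood at 9.92, 9.89 and 9.90 in WT and at 10.03, 10.08 and 10.12 in *Cmah*-null samples, a difference of 0.18 (standard error 0.07, limma unadjusted p = 0.0417, adjusted p = 0.574) that is under 1.5-fold. Its unadjusted p was under 0.05 in 2 of the 13 alternatives, median scaling (a difference of 0.57, limma unadjusted p = 0.0292, adjusted p = 0.277) and the bead sets as a block (limma unadjusted p = 0.0497, adjusted p = 0.282). It reached 0.408 with a trend and robust prior (limma, adjusted p = 0.81). Without any one of the 6 samples it stayed above 0.05, with differences of 0.15 to 0.20. A second probe of *Kcnh1* was detected on no array and had a difference of 0.01.

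The other voltage-gated channels of neurons overlapped between genotypes. *Kcna1*, the Kv1.1 channel that lies beside nodes of Ranvier, stood at 10.68, 9.30 and 9.66 in WT and at 9.74, 10.18 and 8.91 in *Cmah*-null samples, a difference of -0.27 (standard error 0.46). It became 0.13 without WT 1, and -0.64 and a call with the bead sets as a block (limma, unadjusted p = 0.0139, adjusted p = 0.175). *Kcnd2*, the A-type channel Kv4.2, stood at 9.37, 9.07 and 8.61 in WT and at 8.60, 8.86 and 8.88 in *Cmah*-null samples, a difference of -0.24 (standard error 0.21). WT 1 was the highest WT sample for both, and also for the neuron markers, whose summed log2 signal was 14.42 in WT 1 against 13.49 to 13.82 in the other 5 samples, and for the myelin markers, at 16.53 against 15.18 to 15.48. All 7 neuron markers and all 5 myelin markers on the array had lower means in *Cmah*-null samples, as had 8512 of all 18138 symbols. Of the markers *Prph* (-1.37) passed the threshold, while *Nefl* and *Snap25* were detected on no array. Several differences were near 0, such as -0.05 for *Tubb3* and -0.01 for *Mbp*. The neuron sums of WT 2 and WT 3 (13.69 and 13.53) lay within the *Cmah*-null range of 13.49 to 13.82. Their myelin sums (15.48 and 15.18) lay on either side of the *Cmah*-null range of 15.28 to 15.47. The part of the neuron and myelin content in these members was not tested.

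Several channels known from the cochlea or its nerve were near background here. *Kcna10*, a Kv1 channel of hair cells, was detected on 3 WT arrays and 1 *Cmah*-null array with a difference of -0.11, and its second probe had one of 0.11. *Kcna2*, the partner of *Kcna1* in axons, was detected on 3 arrays with a difference of 0.32 (standard error 0.24), and *Kcnq3*, an M-current channel of neurons, on 2 *Cmah*-null arrays with one of 0.21. Detection differences of this kind rest on signals near the negative controls and were not read as differences between genotypes.

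**Figure D4:**
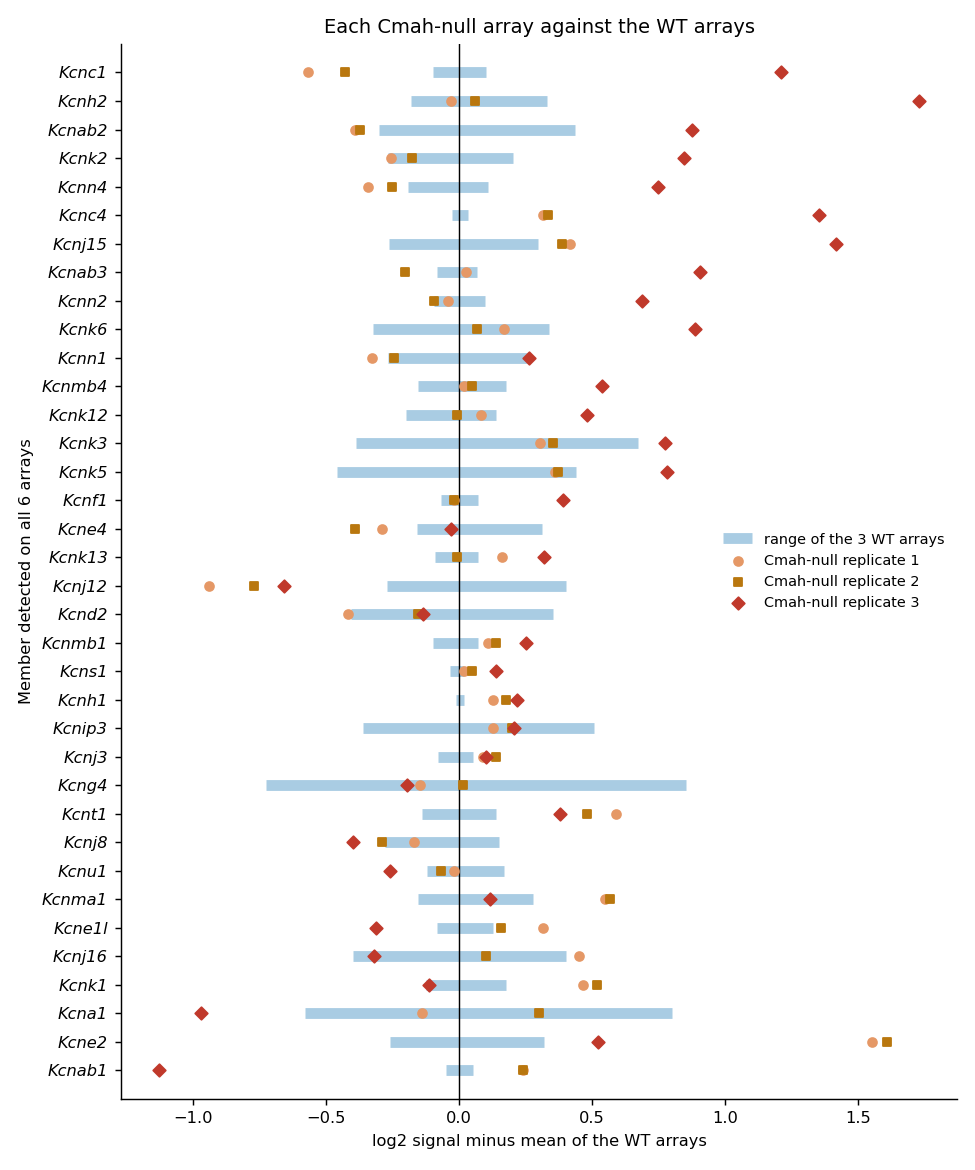
Log2 signal minus the mean of the WT samples (horizontal axis) for each *Cmah*-null sample (symbols) and the range of the 3 WT samples (blue bars), for 36 of the 37 members detected on all arrays (vertical axis, ordered by how far *Cmah*-null 3 lay from *Cmah*-null 1 and 2). *Cmah*-null 3 was the highest of all 6 samples for 20 of the members, with *Kcnh2*, *Kcnj15*, *Kcnc4* and *Kcnc1* the farthest to the right.

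The sample *Cmah*-null 3 therefore weighed on many of these values. Among the 37 members detected on all arrays it was the highest of the 6 samples in 20 (54.1%, against 37.9% of all symbols so detected) and the lowest in 5 (13.5%, against 30.9%). It was the sample farthest from the median of the 6 in 51.4% of these members and in 53.4% of all symbols so detected. It lay more than 1 log2 unit from the mean of *Cmah*-null 1 and 2 in 10 members (27%, against 19.9%). *Cmah*-null 1 and 2 were both outside the WT range on one side in 17 members (45.9%, against 40.2%). In 5 members (13.5%, and 13.5% of all symbols) *Cmah*-null 3 was then outside it on the other side (*Kcnab1*, *Kcnab2*, *Kcnc1*, *Kcne1l* and *Kcnn4*). The SD was larger in *Cmah*-null than in WT samples in 23 of the 37 (62.2%, against 61.9%). Without *Cmah*-null 3 the median over the 37 was 0.04, with 22 positive and 15 negative differences, in place of 0.14 with 27 and 10. The calls of *Kcne2* and *Kcnj12* were kept, at 1.58 and -0.85.

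**Figure D5:**
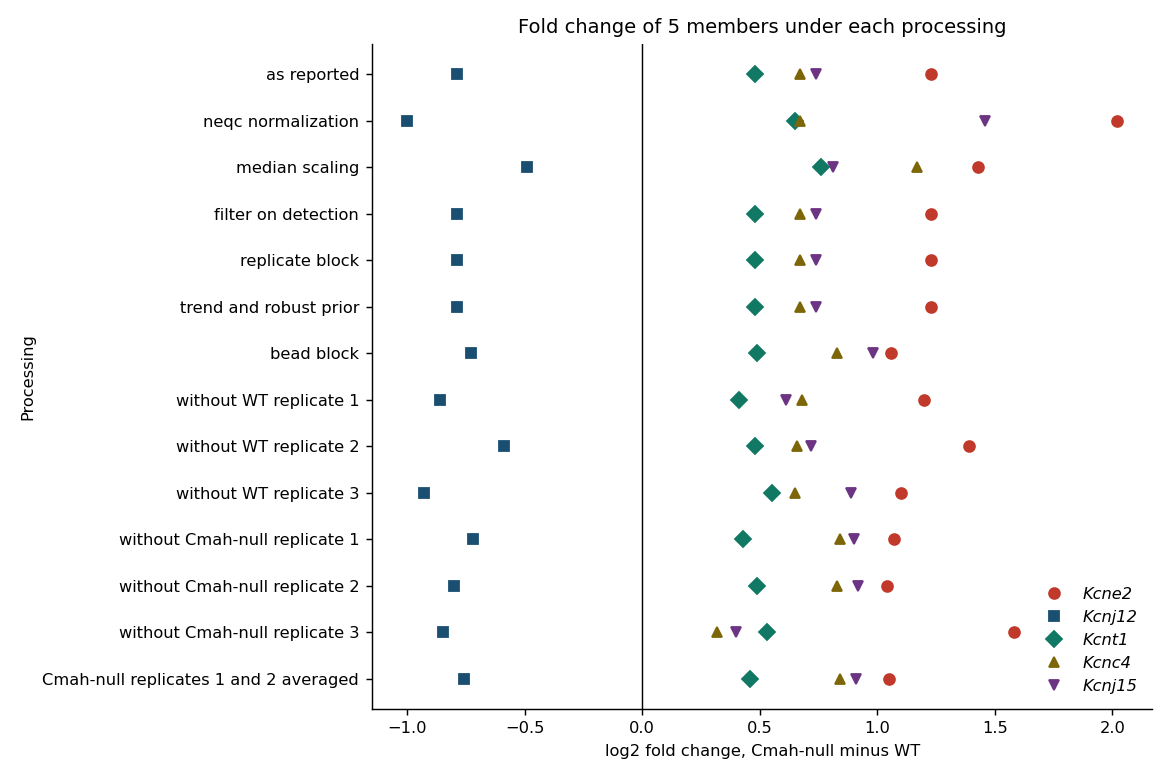
Log2 fold change, *Cmah*-null minus WT (horizontal axis), of *Kcne2*, *Kcnj12*, *Kcnt1*, *Kcnc4* and *Kcnj15* under each way of processing (vertical axis). All 5 stayed on one side of 0, and *Kcnc4* and *Kcnj15* were smallest without *Cmah*-null 3, at 0.32 and 0.40.

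For most members the array gave 1 view of the gene. Of the 26 members with more than 1 probe, 6 had at least 2 probes detected on all arrays (*Kcnab1*, *Kcnc1*, *Kcnh2*, *Kcnk5*, *Kcnk6* and *Kcnmb4*), and in none of them did those probes differ in sign. Counting every probe, 13 members had probes of both signs (among them *Kcna10*, *Kcnip1*, *Kcnip2*, *Kcnj6*, *Kcnj15*, *Kcnk2*, *Kcnk4*, *Kcnk9*, *Kcnk15*, *Kcnmb2* and *Kcnn2*). In each of these at most 1 probe was detected on all arrays, so that the sign of the other probes came from signals near background.

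Other genes that move potassium or partner these channels were taken from a list of 38, which held sodium-potassium pumps, cation-chloride cotransporters, gap junction proteins, HCN channels and accessory proteins. Of the 32 on the array, 24 were detected on all arrays, and 1 passed the 1.5-fold threshold upward and 1 downward, with a median difference of 0.10. Over all symbols, 1.61% passed upward and 1.46% downward. *Atp1b2*, a beta subunit of the pump that the stria and glia use, stood at 12.77, 11.80 and 11.26 in WT and at 13.02, 13.00 and 13.29 in *Cmah*-null samples, a difference of 1.16 (limma, unadjusted p = 0.0237, adjusted p = 0.540), 0.23 within the arrays with fewer beads and 1.76 within those with more. It was also on a list of stria markers, with 8 on the array. Of these, 4 had higher and 4 lower means in *Cmah*-null samples, and only *Atp1b2* passed the threshold. *Adam22*, a membrane protein found with Kv1 channels along axons, stood at 8.87, 8.30 and 8.30 in WT and at 8.0, 8.06 and 7.58 in *Cmah*-null samples, a difference of -0.61 (limma, unadjusted p = 0.0292, adjusted p = 0.549). In both genes the groups were apart. Among the 32 genes, 5 were apart upward and 1 downward, where 10% and 6.67% of all symbols were. *Hcn2*, a pacemaker channel of neurons, was highest in *Cmah*-null 3, as were *Kcnh2* and *Kcnc1*. It stood at 10.53 and 10.58 in *Cmah*-null 1 and 2, 12.83 in *Cmah*-null 3 and 10.72 to 11.38 in WT. *Cmah*-null 1 and 2 thus lay under the WT range, as for the brightest *Kcnc1* probe, whereas for *Kcnh2* they lay inside it.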

How the data were processed

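Cochlear RNA of 3 WT and 3 *Cmah*-null samples was labelled as biotin cRNA and hybridized to 1 bead array each. The authors deposited intensity values, the average bead signal of each probe, linear, neither normalized nor background-subtracted, with the bead standard error as an intensity and the number of beads. The deposited detection p-value of each probe sets its signal against negative controls. A second deposited table holds log2 values that the authors quantile-normalized, and these equalled quantile-normalized log2 signals to within 5.0e-07. In that table the knockout columns are headed "old" and were matched to the *Cmah*-null samples by number. Its 9 columns of the authors' own comparison (fold change, group means and SDs, LPE statistic, adjusted p) and 12 columns that repeat signals and detection p were not used. Scanner software was not given in the sources used here. The number of arrays limits the precision.

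All 25697 probes entered a limma fit without covariates (version 3.58.1 under R 4.3.3, functions lmFit and eBayes, two-sided p adjusted by Benjamini and Hochberg's method across the array), after the script was tested on simulated data. Numbers of detected members were compared by an exact permutation test in scipy 1.17.1, and Python 3.11.15 with matplotlib 3.10.9 drew the figures. Marker and partner lists were compared by counts and levels only. The members and lists were chosen with earlier results of these data known. Named were members past 1.5-fold with an unadjusted p under 0.05, up to 10 members detected on all arrays with groups apart, 20 members with a textbook role in the cochlea, and members whose probes differ in sign. Other members, and *Hcn2* and *Abcc9* among the partners, were named after their values were seen. Alternatives were neqc normalization (offset 16), scaling to a common median, dropping probes detected on fewer than 3 arrays, the replicate number or the bead set as a block, a prior with trend and robust, each sample left out, other probes per gene and a detection p under 0.01. Probe sequences and cytobands are those of the deposited annotation, which names no genome build. A few members count in the totals but are not reported by name here.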

Additional observations from a re-analysis of the deposited data

How the results depend on the processing

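*Kcne2* was called higher under all 13 alternatives (differences of 1.04 to 2.02), and *Kcnj12* lower under all but median scaling (-1.0 to -0.49). No member had an adjusted p under 0.05 under any of them (limma), and the lowest was 0.098, with median scaling. The number of members called higher was 1 as reported. It was 3 with neqc normalization (with *Kcnj15* and *Kcnt1*, where 3.53% of all symbols were called higher) and 6 with median scaling. It was 4 with the bead sets as a block (4.17% of all symbols) and 2 with a trend and robust prior (with *Kcnj15*, 1.81%). With *Cmah*-null 1 and 2 averaged, an alternative chosen after seeing the data, it was 2 (with *Kcnc4*, 1.78%). With a sample left out it was 1 to 3 (0.948% to 2.51% of all symbols). The number called lower, 1 as reported, was 0 with median scaling, 2 with the bead block (with *Kcna1*, 3.3% of all symbols), and 1 to 2 with a sample left out (0.943% to 2.0%). With median scaling the median difference over probes detected on 6 arrays was 0.30, so its 11.8% of symbols called higher are set against that shift, and it turned the median over the 81 members from 0.04 to -0.01. The filter on detection left 45 members with a median of 0.12. Groups apart and lower were 1 with median scaling (1.76% of all symbols) and 1 with the filter (7.4%), against 2 (6.67%). With a sample left out, groups apart numbered 9 to 18 higher, where 13% to 19.6% of all symbols were apart, and 2 to 18 lower, where 9% to 15.2% were, since smaller groups overlap less, and *Kcnk3* (without WT 1), *Kcna7* and *Kcnk5* (without WT 3), *Kcnc4* (without *Cmah*-null 1 or 2) and *Kcnj15* (without *Cmah*-null 2) passed the threshold. Same-numbered samples had correlations of deviations of 0.022, -0.17 and 0.013. With *Cmah*-null 1 and 2 so alike, these cannot settle whether the replicate numbers pair the samples. With the replicate block 2 members were called higher (with *Kcnj15*, 1.96% of all symbols). Of the 33 members named by rule, 20 kept the sign of their difference under all their alternatives and 13 did not.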
